A study of Mus musculus with 31 samples.

Results

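Fmnl1, Diap1 and Svil encode proteins that build or bind actin filaments, and each has 1 alternative exon among the splicing events counted by RASL-seq in the cortex of mice with Huntington's disease (HD) mutations. The events were taken by their gene symbol, which gave 3 of 1922 events in all: 2 of 1743 in the R6/2 mice, 3 of 1785 in the Q150 mice and 2 of 1839 in the Q175 mice, since the Svil event was listed for the Q150 mice and their WT controls only. In RASL-seq, DNA probes bound on both sides of a known junction are ligated and counted by sequencing. Ligation across the junction that skips the exon gave the short count and ligation at a junction of the included exon the long count. Exclusion is the short count as a percent of both.

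The 3 genes were chosen by their measured changes of exclusion in mutant mice. Differences between mutant and WT mice, or between HET and HOMO mice, are therefore given below as descriptions, with no p-value for these genes.

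R6/2 mice carry a transgene with the first exon of mutant human huntingtin, driven by the human promoter, next to their intact mouse genes. Of this line (B6CBA-Tg(HDexon1)62Gpb/3J, 3 months of age), 3 transgenic mice, labelled HD, and 3 WT mice were used. Knock-in mice carry the expanded repeat in their own huntingtin gene, on 1 allele (HET) or both (HOMO), and express it wherever that gene is active. The Q150 mice (allele Htttm2Detl, 7 months) were 4 HET and 4 HOMO mice with 5 WT mice, and the Q175 mice (allele Htttm1Mfc, 18 months) 4 HET and 3 HOMO mice with 5 WT mice. None was treated, and every WT knock-in control had 7 glutamines on both alleles. Line, the background in the strain name, age and file set changed together, so they cannot be told apart between models.

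Formins are dimers that sit on the growing end of an actin filament and add subunits to it, which gives long unbranched filaments. In the resting state the tail of many formins binds the front of the same molecule and holds it closed, and small GTPases release it. Fmnl1 is a formin best known from white blood cells, and Diap1, now named Diaph1, is a formin found in many tissues. Svil encodes supervillin, a member of the villin and gelsolin family that ties actin and myosin II to membranes. In neurons, actin filaments shape growth cones and dendritic spines.

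The positions in the files did not fall on exon ends of GRCm38, although mm10, another name for that build, stands in the submitters' processing notes. Both ends lay on GRCm38 exon ends in 46 of 1922 events. Exons were therefore identified by the distance between their flanking exons in the GENCODE annotation of GRCm38, which gave exactly 1 annotated exon for 1520 of 1801 named cassette events and for all 3 genes.

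The Fmnl1 exon lay at chr11:103198135-103198233 on the plus strand of GRCm38 and was the second-to-last exon of transcripts Fmnl1-201 and Fmnl1-203. It was absent from Fmnl1-202 and Fmnl1-207. Of its 99 bases, 89 were coding, and the TAG stop codon took up bases 90 to 92. When the exon was left out, the last exon supplied 101 coding bases in its place, so that the annotated transcripts with and without the exon end in different protein tails. The junctions behind the short and long counts are shown because the largest change of the 3 genes was a switch between them. The upstream part of each is in lower case and the part that follows the junction in capitals, and all were read from GRCm38. Which of the 2 junctions of the included exon was counted as long was not looked up, since the list of probe pairs was not used here.

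Fmnl1 exon left out: aggacatcatcacagATCTTCGGAACCAGC
Fmnl1 upstream exon into cassette exon: aggacatcatcacagTGCTGAAGACAGTGC
Fmnl1 cassette exon into last exon: ccctttagctcccagATCTTCGGAACCAGC

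The coding part of the cassette exon is shown because it is the stretch whose use differed, with its stop codon in capitals.

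Fmnl1 cassette exon through its stop codon: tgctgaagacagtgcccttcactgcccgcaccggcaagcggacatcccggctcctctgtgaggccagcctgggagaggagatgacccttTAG

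The Diap1 exon had 27 bases, at chr18:37906388-37906414 on the minus strand of GRCm38. It was exon 2 of 28 in Diaph1-201, added 9 codons with no stop in frame, and was absent from Diaph1-202 and Diaph1-205. The Svil exon had 96 bases, at chr18:5060515-5060610 on the plus strand, and added 32 codons with no stop in frame. It was present in 5 annotated transcripts and absent from 2. The gene AC129315.1, on the opposite strand, overlapped the Diap1 event but not its exon.

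The lengths of all 3 exons were divisible by 3, a property of 65.5% of the 1520 matched exons. Diap1 had one of the shortest, since 4.67% of matched exons had at most 27 bases, and Fmnl1 and Svil were near the median of 90 bases. The introns beside the Fmnl1 exon had 356 and 249 bases against medians of 2334.5 and 2269, while the intron before the Diap1 exon had 28787 bases. The introns after the Diap1 and Svil exons, with 1228 and 1551 bases, were also shorter than the median. The exons were 63.6% (Fmnl1), 55.6% (Diap1) and 58.3% (Svil) G and C, and 95%, 75.7% and 85.6% of matched exons had less.

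The letters TGTGT, a stretch of the UG-rich RNA that Tdp-43 binds, were searched on the transcript strand in the exon and in 200 bases of intron on either side, overlapping matches included. The windows of Fmnl1 held none. Diap1 had 1 match before and 1 after its exon, and Svil 1 before and 2 after. A match occurred before 38.9%, within 10.3% and after 38.6% of all matched exons. TGACT, a sequence that fits the consensus around N6-methylated adenosines, occurred 1 time after each of the 3 exons, as it did after 22.2% of all matched exons. It also occurred 1 time before the Svil exon, and before 24.8% of all. These are matches of letters only.

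The libraries held 2171709 to 5256516 counts per mouse, with no junction under 4 counts in any file. Mean exclusion over all events was 45.3 to 45.5% in R6/2 WT mice and 47.0 to 47.5% in R6/2 HD mice. It was 44.5 to 44.9% in Q150 WT, 45.4 to 45.7% in Q150 HET and 46.0 to 46.9% in Q150 HOMO mice. In the Q175 mice it was 44.8 to 45.4% in WT, 44.7 to 45.7% in HET and 45.4 to 45.8% in HOMO mice, with overlap. Of the 10 neuronal marker genes listed, 5 had events in the files, and their summed counts per 1000000 counts of the library (CPM) were 36923 to 40820 in R6/2 WT and 29812 to 34369 in R6/2 HD mice, 38018 to 45540 in Q150 WT, 32719 to 41257 in Q150 HET and 33265 to 38082 in Q150 HOMO mice, and 34005 to 42189 in Q175 WT, 34434 to 40605 in Q175 HET and 35753 to 41425 in Q175 HOMO mice. Summed oligodendrocyte markers, 2 to 4 of 7 with events, overlapped between WT and mutant mice of the same model. None of the 5 astrocyte markers and none of the 6 markers of microglia and other blood-derived cells had events, so those cells could not be followed, and of 5 vascular markers only Pecam1 had one. The label cortex rests here on the neuronal and oligodendrocyte genes. In whole cortex, fewer cells of a type and less RNA per cell cannot be told apart.

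The Fmnl1 exon went from mostly kept to mostly left out in R6/2 mice, and it was left out more often in HOMO mice of both knock-in lines. In R6/2 WT mice, exclusion was 30.1% in replicate 3, 33.7% in replicate 4 and 26.2% in replicate 6. In R6/2 HD mice, it was 56.2% in replicate 860, 83.9% in replicate 868 and 96.7% in replicate 869. Every HD mouse was above every WT mouse, and the HD mice differed far more from each other than the WT mice did. In HD replicate 869 only 163 of 4985 counts kept the exon, with a 95% Wilson interval for exclusion of 96.2 to 97.2% that covers counting error only.

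R6/2 WT mice averaged 30.0% ± 3.77 (SD, n = 3) Fmnl1 exclusion and R6/2 HD mice 78.9% ± 20.7 (SD, n = 3). The change of the log2 short-to-long ratio was 3.77 ± 0.76 (SE), the second largest of 1743 events by size. The change was 2.60 without HD replicate 869 and 4.86 without HD replicate 860. The mice did not overlap, as was so in the same direction for 28.9% of all events, and the change passed an adjusted p of 0.05, as 21.1% of all events did with higher exclusion. The summed neuronal markers were lower in every HD mouse than in every WT mouse; their part in the change was not tested. The WT mice were numbers 3, 4 and 6 and the HD mice numbers 860, 868 and 869, so that any batch that follows the numbers and the genotype cannot be told apart.

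Both junctions of Fmnl1 moved. In CPM, mean short counts were 3.41 times and mean long counts 0.301 times those of WT mice, while their sum was 1.22 times. Short CPM were 215 to 233 in WT and 370 to 1112 in HD mice, and long CPM were 423 to 648 in WT and 37.6 to 288 in HD mice. Neither range overlapped between the genotypes, but the share of all events with such a gap in a single junction was not counted. The sum did overlap, at 638 to 878 CPM in WT and 658 to 1149 in HD mice.

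In Q150 WT mice, Fmnl1 exclusion was 27.6, 35.5, 33.2, 27.0 and 24.8% in replicates 1 to 5. In Q150 HET mice, it was 39.8, 39.0, 35.5 and 30.0% in replicates 1 to 4. In Q150 HOMO mice, it was 45.0, 58.8, 47.9 and 42.7% in replicates 1 to 4. All HOMO mice were above all HET and WT mice, whereas 3 of 4 HET mice were above all WT mice, replicate 3 by less than its counting error, and HET replicate 4 fell among them.

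Q150 WT mice averaged 29.6% ± 4.50 (SD, n = 5). HET mice averaged 36.1% ± 4.45 (SD, n = 4) and HOMO mice 48.6% ± 7.11 (SD, n = 4). On the log2 ratio, HOMO mice differed from WT by 1.18 ± 0.18 (SE), HET mice from WT by 0.43 ± 0.18 and HOMO from HET mice by 0.75 ± 0.19. The difference of HOMO from WT passed the threshold, as 19.8% of all events did with higher exclusion, and that of HET from WT did not, against 3.03% of all events with higher exclusion and 3.47% in either direction. Non-overlap in this direction was found for 14.9% of events between HOMO and WT mice. That of HOMO from HET passed, against 1.9% of all events with higher exclusion, and had no overlap, against 7% of all events, but it no longer passed when any of the 4 HET mice or HOMO replicate 1, 2 or 3 was left out, with changes from 0.55 to 0.86 over all mice left out. Nor did it pass with centring on the median event, without a variance trend or with a quasi-binomial model. It did pass with mouse-number series as a block, at 0.86 ± 0.13 (SE). Here mean short CPM were 1.17 times and mean long counts 0.549 times those of WT mice in HOMO mice, so that the sum was 0.735 times WT. The summed neuronal markers of Q150 HET and HOMO mice overlapped those of WT mice but reached lower, and their part in these changes was not tested.

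In Q175 WT mice, Fmnl1 exclusion was 24.8, 26.3, 27.6, 28.7 and 26.9% in replicates 6 to 10. In Q175 HET mice, it was 26.9, 35.2, 31.2 and 30.2% in replicates 1 to 4, and in Q175 HOMO mice 30.9, 38.0 and 36.7% in replicates 1 to 3. The WT mice lay close together, every HOMO mouse was above them, and 3 of 4 HET mice were above all WT mice. HET mice did not overlap WT mice in this direction for 2.23% of all events.

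Q175 WT mice averaged 26.9% ± 1.47 (SD, n = 5). HET mice averaged 30.9% ± 3.43 (SD, n = 4) and HOMO mice 35.2% ± 3.81 (SD, n = 3). The log2 ratio was higher than in WT by 0.56 ± 0.11 (SE) in HOMO mice, which passed where 5.6% of all events passed with higher exclusion, and by 0.28 ± 0.10 in HET mice, which did not pass, against 0.381% of all events. Without a variance trend in limma the HOMO difference did not pass either. Non-overlap in this direction was found for 9.62% of events between HOMO and WT mice. HOMO and HET mice differed by 0.28 ± 0.12, which did not pass, against 0.761% of all events. This difference was 0.19 to 0.42 when mice were left out, and 0.17 ± 0.18 with mouse-number series as a block, since all HET mice had low and all HOMO mice high mouse numbers. The HET difference from WT was 0.18 without HET replicate 2. Mean long CPM in HOMO mice were 0.790 times those of WT mice and short counts 1.18 times.

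Over all mice, Fmnl1 exclusion ran from Q175 WT, Q150 WT, R6/2 WT and Q175 HET through Q175 HOMO and Q150 HET to Q150 HOMO and R6/2 HD. Neighbours in that order overlapped, except that all Q150 HOMO mice were above all Q150 HET mice.

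**Figure D1:**
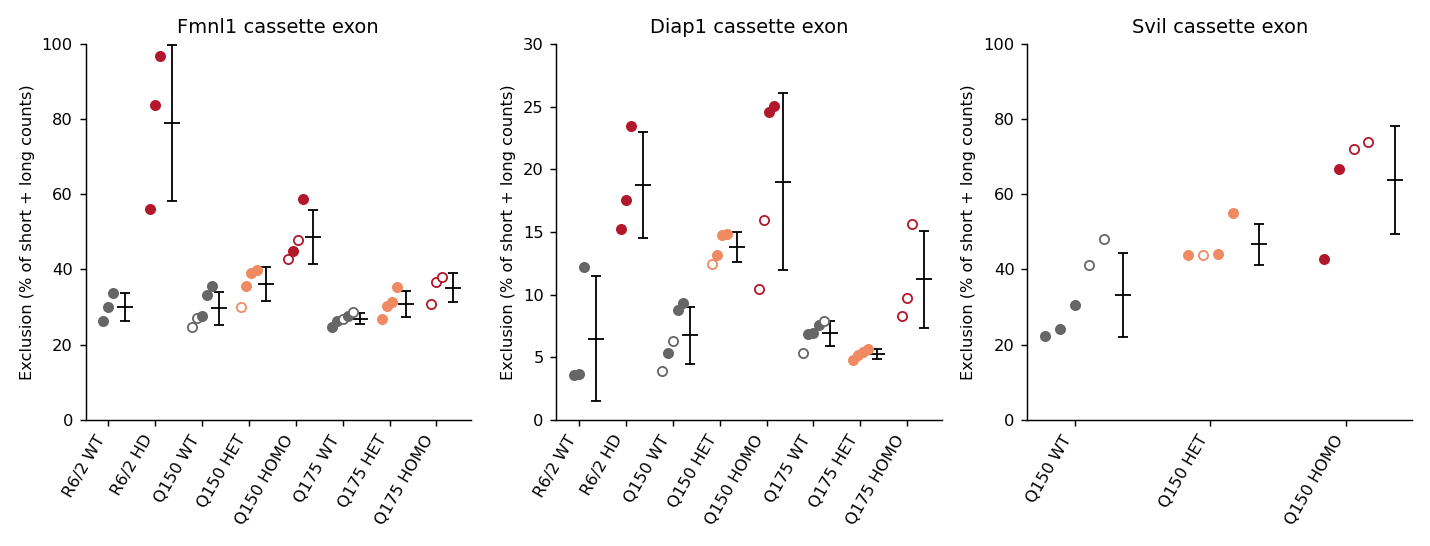
Exclusion in percent of short plus long counts (y axis, a different range for Diap1) of the Fmnl1, Diap1 and Svil exons by group (x axis); each point is 1 mouse, bars are the mean and SD, and open points are knock-in mice with high mouse numbers (402 to 421 in the Q150 and 3857 to 8179 in the Q175 mice). Fmnl1 reached 56.2 to 96.7% in R6/2 HD mice against 26.2 to 33.7% in R6/2 WT mice, and Diap1 in Q175 HET mice, at 4.77 to 5.66%, was below the Q175 WT mean of 6.91%.

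The short exon of Diap1 was kept in most counts of every mouse, and it was left out more often in R6/2 HD mice and in Q150 mice of both genotypes. In R6/2 WT mice, exclusion was 3.56% in replicate 3, 12.2% in replicate 4 and 3.64% in replicate 6. In R6/2 HD mice, it was 15.3% in replicate 860, 23.4% in replicate 868 and 17.5% in replicate 869. The genotypes did not overlap, but WT replicate 4 stood above the other WT mice, on 38 short counts of 311 and with a 95% Wilson interval of 9.03 to 16.3% that covers counting error only.

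R6/2 WT mice averaged 6.47% ± 4.98 (SD, n = 3) Diap1 exclusion and R6/2 HD mice 18.7% ± 4.22 (SD, n = 3). The change of the log2 ratio was 1.94 ± 0.44 (SE), the 37th largest of 1743 events by size. It passed, as 21.1% of all events did with higher exclusion, and non-overlap in this direction was found for 28.9%. Without WT replicate 4 it was 2.57. Mean short CPM were 2.71 times and mean long counts 0.808 times those of WT mice. As for Fmnl1, the part of the lower neuronal marker counts in this change was not tested.

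In Q150 WT mice, Diap1 exclusion was 5.37, 8.78, 9.33, 3.86 and 6.32% in replicates 1 to 5. In Q150 HET mice, it was 14.7, 13.1, 14.8 and 12.5% in replicates 1 to 4. In Q150 HOMO mice, it was 24.6, 25.1, 16.0 and 10.4% in replicates 1 to 4. All mutant mice were above all WT mice. The HET mice lay close together, between 12.5 and 14.8%, and the HOMO mice fell on both sides of them.

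Q150 WT mice averaged 6.73% ± 2.30 (SD, n = 5). HET mice averaged 13.8% ± 1.17 (SD, n = 4) and HOMO mice 19.0% ± 7.07 (SD, n = 4). The log2 ratio was higher than in WT by 1.67 ± 0.29 (SE) in HOMO mice and by 1.20 ± 0.29 in HET mice, the 10th and 9th largest of 1785 changes in their comparisons. Both passed, as 19.8% (HOMO) and 3.03% (HET) of all events did with higher exclusion. The mice did not overlap in either, as was so in this direction for 14.9% (HOMO) and 5.99% (HET) of all events. The HET change no longer passed without HET replicate 1, 2 or 3 or WT replicate 1 or 4, with changes from 1.01 to 1.34 over all mice left out, nor without a variance trend or with a quasi-binomial model. HOMO and HET mice differed by 0.47 ± 0.30, which did not pass, with 0.27 without HOMO replicate 2, 0.29 without HOMO replicate 1 and 0.78 without HOMO replicate 4. Mean short CPM were 2.20 times those of WT in HET and 3.52 times in HOMO mice, with mean long CPM at 1.00 and 1.08 times, where those of Fmnl1 were at 0.832 and 0.549 times. The part of the neuronal marker counts in these changes was not tested.

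In Q175 WT mice, Diap1 exclusion was 6.89, 6.97, 7.55, 5.31 and 7.86% in replicates 6 to 10. In Q175 HET mice, it was 5.66, 4.77, 5.19 and 5.43% in replicates 1 to 4, and in Q175 HOMO mice 9.76, 8.28 and 15.6% in replicates 1 to 3. All HOMO mice were above all WT mice, as was so for 9.62% of all events, and all HET mice were below 4 of the 5 WT mice.

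Q175 WT mice averaged 6.91% ± 0.984 (SD, n = 5). HET mice averaged 5.26% ± 0.380 (SD, n = 4) and HOMO mice 11.2% ± 3.87 (SD, n = 3). On the log2 ratio, the HET mice differed from WT by -0.40 ± 0.23 (SE) and the HOMO mice by 0.72 ± 0.25, neither of which passed. Of all events, 0.598% passed in either direction for HET mice and 5.6% with higher exclusion for HOMO mice. The HOMO difference was 0.42 without HOMO replicate 3. HOMO and HET mice differed by 1.12 ± 0.27, the 10th largest of 1839 changes. It passed, as 0.761% of all events did with higher exclusion, and had no overlap, as was so in this direction for 7.18% of all events. It no longer passed without HOMO replicate 3, at 0.82, or without HET replicate 2, at 1.07, nor without a variance trend or with a quasi-binomial model. The comparison of these genotypes within a series of numbers could not be made. With the series as a block, estimated through the WT mice, the difference was 1.27 ± 0.42 and did not pass.

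Diap1 exclusion was lowest in Q175 HET mice, followed by the WT mice of all 3 models, Q175 HOMO, Q150 HET, R6/2 HD and Q150 HOMO mice. The mice of neighbours in that order overlapped apart from Q175 WT below Q175 HOMO and Q150 HET below R6/2 HD mice. For the latter pair, which differs in line, age and file set, the share of all events without overlap was not counted. Diap1 thus had its highest mean in Q150 HOMO mice, at 19.0%, and Fmnl1 in R6/2 HD mice.

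**Figure D2:**
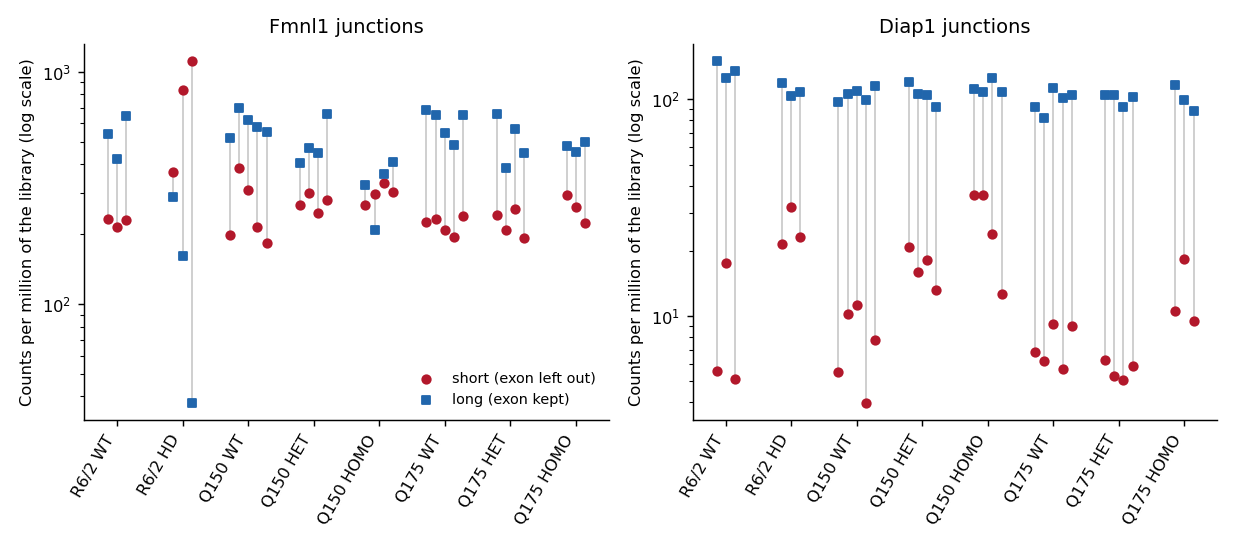
Short (red circles) and long (blue squares) CPM (y axis, log scale) for the Fmnl1 and Diap1 events by group (x axis); each joined pair is 1 mouse. For Fmnl1 the long counts fell below the short counts in all 3 R6/2 HD mice, down to 37.6 CPM in replicate 869, while for Diap1 the short counts differed most and the long counts lay between 82.3 and 150 CPM in every mouse.

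The Svil exon was kept in most counts of Q150 WT mice and left out in most counts of 3 of 4 Q150 HOMO mice, on very few counts. In WT mice, the short counts were 7 of 29, 7 of 23, 6 of 27, 12 of 25 and 7 of 17 in replicates 1 to 5. In HET mice, they were 11 of 20, 7 of 16, 15 of 34 and 7 of 16, and in HOMO mice 8 of 12, 9 of 21, 17 of 23 and 18 of 25 in replicates 1 to 4. Genotypes overlapped, since HOMO replicate 2, at 42.9%, was below WT replicate 4, at 48%.

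WT mice averaged 33.2% ± 11.1 (SD, n = 5) Svil exclusion. HET mice averaged 46.7% ± 5.57 (SD, n = 4) and HOMO mice 63.9% ± 14.3 (SD, n = 4). The log2 ratio was higher than in WT by 1.82 ± 0.47 (SE) in HOMO mice, the 6th largest of 1785 changes, which passed, as 19.8% of all events did with higher exclusion. The difference was 0.82 ± 0.47 in HET mice and 1.00 ± 0.49 between HOMO and HET mice, neither of which passed. The summed neuronal markers of the Q150 mice had medians of 42669 CPM in WT, 36249 in HET and 35310 in HOMO mice, and their part in the Svil change was not tested. Counting error alone was wide here: for HOMO replicate 1, with 12 counts, the 95% Wilson interval around 66.7% ran from 39.1 to 86.2%. No Svil event was listed for the R6/2 and Q175 mice, and its level there was not measured here. The lists held no junction under 4 counts.

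**Figure D3:**
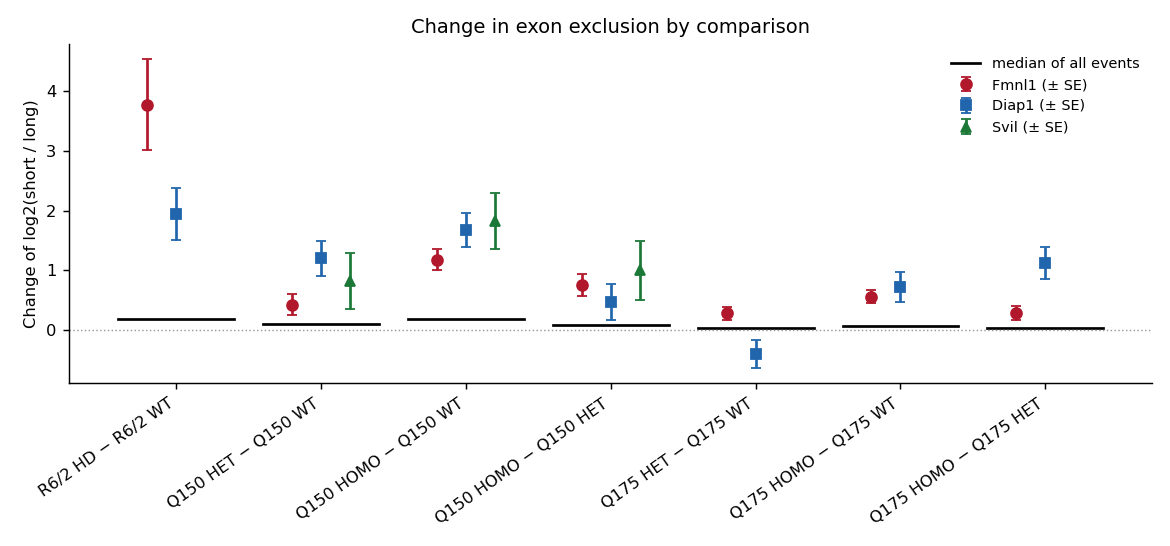
Change of the log2 short-to-long ratio (y axis) of Fmnl1 (red circles), Diap1 (blue squares) and Svil (green triangles) in each comparison (x axis); bars are the SE of the limma fit and black lines the median change of all events. Diap1 in Q175 HET against WT mice, at -0.40, is the only point below 0, and the medians lie between 0.035 and 0.19.

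These changes may be read beside those of all events, whose median log2 change was 0.18 between R6/2 HD and WT mice, 0.10 and 0.19 for Q150 HET and HOMO against WT mice, and 0.041 and 0.068 for Q175 HET and HOMO against WT mice. The HET and HOMO comparisons of a line share their WT mice.

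Differences between WT mice and between series of mice were tested, since the genes were not chosen by these differences. Counts of the same mice entered both the choice and these tests, so the tests are not independent of the choice. Between the knock-in WT mice of the Q150 and Q175 models, which differ in age and file set, the log2 ratio in Q175 minus Q150 mice was -0.19 ± 0.12 (SE) for Fmnl1 (limma, adjusted p = 0.461) and 0.097 ± 0.25 for Diap1 (limma, adjusted p = 0.907), with 95% intervals of -0.43 to 0.055 and -0.41 to 0.60. Neither passed, against 2.31% of the 1731 events that both file sets list.

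The numbers of the Q150 mice form a low series, 1 to 80, and a high series, 402 to 421, with every genotype in both. With genotype in the model, the log2 ratio in the high series was lower for Fmnl1 by -0.44 ± 0.11 (SE; limma, adjusted p = 0.00473) and for Diap1 by -0.71 ± 0.19 (limma, adjusted p = 0.0116). For Svil it differed the other way, by 0.80 ± 0.39 (limma, adjusted p = 0.161), which did not pass. Of all 1785 events, 15.2% passed in this comparison. Without a variance trend the adjusted p of Fmnl1 was 0.0842 and that of Diap1 0.0574. What the series stand for is not given in the sources used here.

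Mean Fmnl1 and Diap1 exclusion was higher in HET and HOMO than in WT mice within each Q150 series. Mean Fmnl1 exclusion was 32.1% in WT, 38.1% in HET and 51.9% in HOMO mice of the low series (3, 3 and 2 mice), and 25.9, 30.0 and 45.3% in the high series (2, 1 and 2 mice). Mean Diap1 exclusion was 7.83, 14.2 and 24.8% in the low and 5.09, 12.5 and 13.2% in the high series. Mean Svil exclusion was 25.6, 47.6 and 54.8% in the low and 44.6, 43.8 and 73.0% in the high series, where the single HET mouse was therefore at the WT level. In the Q175 mice the low series held 3 WT mice, with means of 26.2% for Fmnl1 and 7.14% for Diap1, and all 4 HET mice. The high series held 2 WT mice, with means of 27.8 and 6.58%, and all 3 HOMO mice, so the order of the genotypes against WT mice was as in the pooled values.

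Other regulators of actin were followed through a list of 104 genes, of which 19 genes with 23 events were measured in R6/2 mice. In R6/2 HD mice 6 of the 23 events passed, 4 towards exclusion and 2 towards inclusion, which is 26.1% against 28.6% of all events. The median log2 change of the list was 0.25, beside 0.18 over all events. The part of the lower neuronal marker counts of the HD mice in these changes was not tested.

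The largest of these changes was that of Inf2, a formin that also severs filaments, listed as 2610204M08Rik. R6/2 WT mice averaged 37.5% ± 1.09 (SD, n = 3) exclusion of its exon and R6/2 HD mice 14.5% ± 3.26 (SD, n = 3), a log2 change of -1.84 ± 0.17 (SE; limma, adjusted p = 1.34e-05) and thus opposite in sign to those of Fmnl1 and Diap1. In Q175 HOMO mice Inf2 exclusion was also lower than in WT, by a log2 change of -0.62 ± 0.16 (limma, adjusted p = 0.011), and in Q150 HOMO mice the change of -0.46 ± 0.18 did not pass (limma, adjusted p = 0.0669). Daam1, a formin that acts downstream of Wnt signals, changed by 0.55 ± 0.25 in R6/2 HD mice (limma, adjusted p = 0.126) and by 0.82 ± 0.26 in Q150 HOMO mice (limma, adjusted p = 0.0272), where it passed with overlapping mice, and by 0.13 ± 0.23 in Q175 HOMO mice (limma, adjusted p = 0.812). In HET against WT mice neither formin passed.

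Of the other listed genes that passed in R6/2 HD mice, exclusion rose by 1.33 ± 0.21 on the log2 scale for Mprip (listed as AA536749), which brings myosin phosphatase to actin, and by 1.19 ± 0.27 for Enah, an elongation factor at filament ends. It rose by 0.53 ± 0.09 for Capzb, a subunit of the capping protein that blocks those ends, and by 0.42 ± 0.12 for Cyfip2, a subunit of the WAVE complex that turns on Arp2/3. It fell by 0.61 ± 0.13 for the actin nucleator Cobl. A second Mprip event, listed under the current symbol, differed by -0.18 ± 0.10 and did not pass (limma, adjusted p = 0.217).

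In Q150 HOMO mice 3 of 27 listed events passed, or 11.1% against 23.9% of all events, with a median change of 0.23 beside 0.19. They were Daam1, Ablim1, which links actin to other proteins, and Cobll1, a relative of Cobl, at 0.82, 1.11 and 1.20, all higher and all with overlapping mice. A second Ablim1 event differed by 0.34 ± 0.39 and did not pass (limma, adjusted p = 0.565). The count was 8 with mouse-number series as a block, 5 against all 10 knock-in WT mice, 1 without a variance trend and 1 without HOMO replicate 2. In Q175 HOMO mice 2 of 28 passed, or 7.14% against 7.07% of all events, both lower: Inf2 and Spire1, a nucleator, at -0.45. The count was 0 without a variance trend, against all 10 knock-in WT mice or without HOMO replicate 1, 1 without HOMO replicate 3 or WT replicate 8 or 9, and 4 without WT replicate 10. Ablim1, Cobll1 and Spire1 are named because they passed, after their values were seen. In HET mice no listed event passed by limma, although 3 of 27 in Q150 and 5 of 28 in Q175 mice had an unadjusted p under 0.05, as did 18.1% and 10.8% of all events. By a quasi-binomial model of the counts, 1 and 0 listed events passed. Of all events, 3.47% and 0.598% passed by limma. Between HOMO and HET mice no listed event passed by limma or the quasi-binomial model, beside 2.18% of all events in Q150 and 0.816% in Q175 mice, and 1 and 2 listed events had an unadjusted p under 0.05, as did 14.1% and 10.9% of all events. The villin and gelsolin family was measured through Vill alone, in the knock-in mice, where it did not pass in HOMO mice (log2 changes of 1.03 ± 0.51 in Q150 and 0.25 ± 0.44 in Q175 mice).

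**Figure D4:**
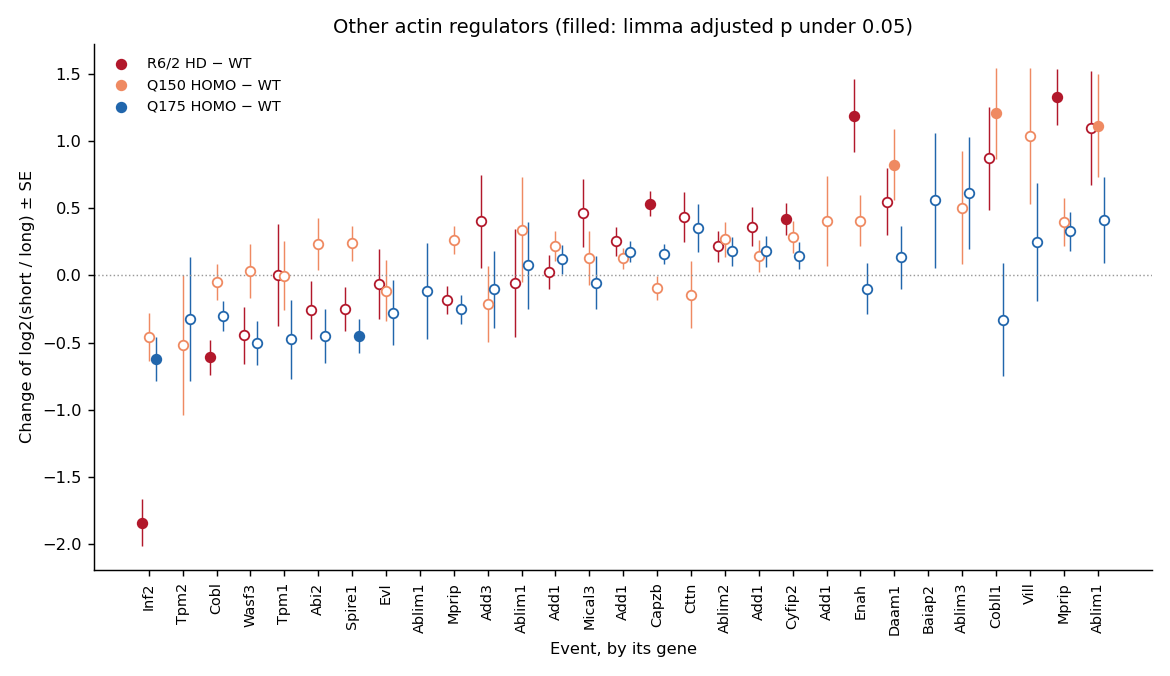
Change of the log2 short-to-long ratio with its SE (y axis) of each event of the actin list other than the 3 genes (x axis, by current gene symbol) between mutant and WT mice; filled points passed an adjusted p of 0.05 in limma. Inf2 in R6/2 HD mice, at -1.84, is the lowest point.

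The events most like each gene over the mice were found by the Pearson correlation of the log2 ratio, after the WT mean of the file set was taken off. This is a description of mice that share genotypes, and no test. For Fmnl1 the closest of 1661 events over 31 mice were Cacnb4 (r = 0.886), Macf1 (r = 0.878) and Spna2 (r = 0.859), against a median r of 0.155. For Diap1 they included Dnm1l (r = 0.850) and Asph (r = 0.844), against a median of 0.196. For Svil, over 13 mice and 1662 events, they were Sars (r = 0.896), Hsf1 (r = 0.893) and Chd5 (r = 0.887), against a median of 0.192. No gene named here was shared between the groups.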

How the data were processed

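The authors prepared 1 RASL-seq library per mouse from cortical total RNA. Since no source mentions molecular identifiers, PCR copies count as reads. The deposited values (unit recorded as other, since large ones carry comma separators) are short and long junction counts with no normalization. The aligner is not given in the sources used here.

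Groups came from the labels, ages, the R6/2 strain and the alleles from the study's methods. Titles and genotypes of the labels name the knock-in lines differently, so the line was taken from the glutamine numbers. For 1 Q175 HET mouse, label and file disagree on its number. The methods give other numbers of HOMO mice, while a supplementary figure legend of the study gives those of the labels. WT knock-in mice were split by the event list of their files, replicates 1 to 5 with the Q150 and 6 to 10 with the Q175 mice. R6/2 replicates carry the labels' mouse numbers. The study calls the R6/2 controls littermates, but which mice shared a litter is not given in the sources used here.

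The ratio log2((short + 0.5) / (long + 0.5)) was fitted by limma 3.58.1 in R 4.3.3 over all events of a file set with a mean short plus long count of at least 10, with a variance trend on the counts. "Passed" means a Benjamini-Hochberg adjusted p under 0.05 over all events. Adding 0.5 understates changes of low counts. CPM are counts per 1000000 counts of the library. No pair of mice within a group agreed within sampling noise (smallest chi-square per degree of freedom 4.26 over 47 pairs). On simulated counts with 200 changed events the fit recovered 55% of log2 changes of 1 and 92% of changes of 2 in the R6/2 design (1743 events), 72% and 99% for Q150 HOMO against WT (1785 events), and 80% and 97% for Q175 HOMO against WT (1839 events).

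The genes, the lists and the tests were chosen with earlier results of these data known. Named were all events of the 3 genes, up to 6 events of the actin list that passed in R6/2 mice without overlap, all other formin events, and the 3 events most like each gene, of which 1 is not reported here. RefSeq synonyms linked older symbols to current ones. The alternatives were a pseudocount of 2, count minimums of 50 and none, no variance trend, centring on the median event, only the 2 groups compared, all 10 knock-in WT mice, mouse-number series as a block, a quasi-binomial model, leaving out each mouse, and median-of-ratios size factors.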

Additional observations from a re-analysis of the deposited data

Results flagged for a closer look

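Svil exclusion in Q150 HET replicate 1 was 55%, apart from the other 3 HET mice at 43.8 to 44.1%, a gap that covers most of the range of the group. It rests on 11 of 20 counts. Of 26 groups of values examined for such a mouse this was 1, and chance gives about 1 in 20 groups.

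Diap1 exclusion in Q175 HET mice was below the WT mean in all 4 mice, by -1.65 points on average, whereas every mouse of the Q150 HET, R6/2 HD and Q175 HOMO groups was above the mean of its own WT mice. The Q175 HET mice lay -2.14 to -1.25 points from their WT mean, the Q150 HET mice 5.73 to 8.09 points, the R6/2 HD mice 8.78 to 16.9 points and the Q175 HOMO mice 1.37 to 8.69 points. The same Q175 HET value therefore stands against 3 other groups. Differences between these groups in their distance from WT were not tested, and the Q175 HET and HOMO mice share their WT mice. The share of all events with such a pattern was not counted.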

How the results depend on the processing

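No paired analysis was possible because the groups compared with each other share no mouse number in the labels. In all, 453 of 475 alternative values counted as the same as those reported. For changes this means a shift smaller than the spread between mice of a group, whether or not the call held. For the tests of WT mice and of series it means the same direction and side of the threshold. For list counts it means a count of similar size. Of 17 changes of Fmnl1, Diap1 and Svil, 12 kept their side of the threshold under all alternatives run, and in none of 275 alternatives did one change sign. The exceptions were Fmnl1 between Q150 HOMO and HET mice (lost in 10 of 16), Diap1 in Q150 HET mice (lost in 7 of 18), Diap1 between Q175 HOMO and HET mice (lost in 5 of 15), Fmnl1 in Q175 HOMO mice (lost without a variance trend) and Fmnl1 in Q150 HET mice (passed against all 10 knock-in WT mice). Leaving out each mouse gave 2.60 to 4.86 for Fmnl1 and 1.63 to 2.57 for Diap1 in R6/2 mice.

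The difference between the series of Q150 mouse numbers did not pass without a variance trend, at -0.44 for Fmnl1 and -0.71 for Diap1. The Diap1 difference between WT mice of the Q175 and Q150 models, 0.097, ranged from -0.093, without Q150 WT replicate 4, to 0.24, without Q150 WT replicate 3. The log2 ratio of Diap1 short plus long CPM, R6/2 HD over WT, was -0.10, and -0.22 with median-of-ratios size factors.

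Of actin list events in Q150 HOMO mice, 3 passed, but 1 without a variance trend, 8 with mouse-number series as a block and 5 against all 10 knock-in WT mice; leaving out each mouse gave as few as 1, without HOMO replicate 2. In Q175 HOMO mice 2 passed, but 0 without a variance trend and 0 against all 10 WT mice; leaving out each mouse gave 0, without HOMO replicate 1, to 4, without WT replicate 10, and 1 without HOMO replicate 3 or WT replicate 8 or 9. In Q150 HET mice the quasi-binomial model gave 1. In Q175 HET mice 1 passed with centring on the median event, 1 with only the 2 groups compared, and 0 to 1 when mice were left out, 1 without HET replicate 1. The causes were not tested. Svil, with a mean count under 50, gave no value under that minimum and none against all 10 WT mice. Depth limits Svil most, at 12 to 34 counts per mouse, then the short junction of Diap1, at 16 to 126 counts.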
